A study of Homo sapiens and Mus musculus with 20 samples.

Results

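The regions described here are stretches of accessible chromatin that were listed in native MCF10A cells and were absent from the list of MCF10A cells expressing Satb1. They were chosen as the regions of the native ATAC-seq list that share no base with any region of the list from Satb1-expressing cells, and they are called lost regions below. There were 19674 of them among 175989 native regions, or 11.2% (exact 95% Clopper-Pearson interval 11 to 11.3%). The remaining 156315 native regions, with an overlap of at least 1 bp, are called kept. Of the 206170 regions in Satb1-expressing cells, 61371 (29.8%) shared no base with the native list and are called gained. Since a lost region was defined by its absence from the other list, the number says where the lists differ and is not a test of a change.

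MCF10A is a non-tumorigenic mammary epithelial line of human origin, and it has no Satb1 of its own. The native cells carried no transgene, and the comparison line stably expressed full-length Satb1 fused to eGFP, which is not the level or context of a cell that makes its own Satb1. The 5 Satb1 ChIP-seq lists came from MCF10A cells expressing eGFP fusions, precipitated with a GFP antibody: full-length Satb1, Satb1 without its homeodomain (∆HD), the N-terminal and CUT1 domains alone (N-C1), and full-length Satb1 after 2 h of camptothecin or of ICRF-193. Camptothecin inhibits topoisomerase I and ICRF-193 inhibits topoisomerase II. Each condition had 1 list, so the spread between replicates is unknown and p-values are not given. Intervals cover counting error only, and neighbouring regions are not independent.

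ATAC-seq uses the Tn5 transposase to insert sequencing adapters where DNA is exposed, so a listed region marks DNA that is open in enough cells to rise above the local background. Satb1 is a chromatin organizer that binds A/T-rich DNA through its CUT domains and homeodomain and is known for tethering chromatin loops in thymocytes. Satb1 contacts a short consensus that reads C or T, then TA, then A or T, then TA, then A or G, and this consensus is its own reverse complement.

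As a check of the labels, all 12 promoters of mammary epithelial marker genes (among them the keratin genes KRT5 and KRT14, the basal regulator TP63 and the adhesion gene CDH1) carried a region in both ATAC lists, with native fold enrichments from 5.15 to 25.9. Of 10 marker genes of blood, endothelium, liver, muscle and neurons, 1 had a promoter region in the native list (CDH5, at a fold of 2.82) and 4 had a region in Satb1-expressing cells. None of these 22 promoters carried a lost region. Only promoters with a native region could carry one, and 0.517% of all native regions with a fold of 5 or more were lost.

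Sequences of 4 lost regions are given from hg19, forward strand, 5′ to 3′, since they stand for the kinds of region in the list: the strongest, the strongest at a promoter, the one under the strongest full-length Satb1 peak, and the one with the most consensus matches. Capitals mark Satb1 consensus matches, and in the first also the AP-1 match TGACTCA. In the promoter, capitals mark CpG steps.
ABCB11 intron, chr2:169882563-169882762: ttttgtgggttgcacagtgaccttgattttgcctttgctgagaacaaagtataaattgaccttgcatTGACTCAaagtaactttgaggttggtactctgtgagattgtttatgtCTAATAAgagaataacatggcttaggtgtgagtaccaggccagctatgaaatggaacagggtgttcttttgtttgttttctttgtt
ZNF879 promoter, chr5:178450707-178450906: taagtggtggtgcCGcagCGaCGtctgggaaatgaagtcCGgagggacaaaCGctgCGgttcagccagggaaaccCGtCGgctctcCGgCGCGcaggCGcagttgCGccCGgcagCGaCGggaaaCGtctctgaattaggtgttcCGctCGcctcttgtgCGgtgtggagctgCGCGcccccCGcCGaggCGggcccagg
FRMD3 intron, chr9:86066405-86066704: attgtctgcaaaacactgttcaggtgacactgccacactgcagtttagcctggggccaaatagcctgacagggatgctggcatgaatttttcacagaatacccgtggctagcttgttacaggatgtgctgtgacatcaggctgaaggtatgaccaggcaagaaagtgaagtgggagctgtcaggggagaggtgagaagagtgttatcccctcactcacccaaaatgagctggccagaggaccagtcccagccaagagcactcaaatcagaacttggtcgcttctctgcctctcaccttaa
region near GSDME, chr7:24807486-24807785: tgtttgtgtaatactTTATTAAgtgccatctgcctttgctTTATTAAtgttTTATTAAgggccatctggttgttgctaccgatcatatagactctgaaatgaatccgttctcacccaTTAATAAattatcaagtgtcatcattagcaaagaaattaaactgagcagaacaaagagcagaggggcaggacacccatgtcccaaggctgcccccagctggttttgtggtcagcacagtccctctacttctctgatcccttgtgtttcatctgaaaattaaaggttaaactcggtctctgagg
The strongest lost region, in an intron of ABCB11 (the bile salt export pump of liver cells), held 1 Satb1 consensus match and 1 AP-1 match in 200 bp that are 62.0% A/T. The promoter of the zinc finger gene ZNF879 held no consensus match and 25 CpG steps in 200 bp. The 300 bp printed for FRMD3, which run slightly past both ends of the region, held no match, although 4 lie in the 400 bp around its midpoint. The region near GSDME (a gasdermin, which forms membrane pores) held 2 matches within its own 202 bp and 4 in the 300 bp printed, the closest pair starting 11 bp apart.

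Lost regions were weak and narrow (the plot of the lost share by strength and width). Their median fold enrichment, the authors' ratio of pileup to local background in native cells, was 2.65, against 4.95 in kept regions, and their median width was 287 bp against 606 bp. Their median −log10 q was 2.71 against 12.8. In the weakest decile of the native list 32.4% of regions were lost, and in the fifth decile 8.18%. Among the 77953 native regions with a fold of 5 or more, 403 were lost (0.517%, interval 0.468 to 0.570%), and among 35951 with a fold of 10 or more, 9. By width, 40.3% of the narrowest decile (median width 202 bp) were lost and 0.210% of the widest. The caller's smallest width is 200 bp, and 20.6% of lost regions had exactly that width, against 2.89% of kept regions. The choice of members can depend on these measures, since a weak region may lie below the threshold of another list. Whether that or a change in the cells applies was not tested, and no more is read from these measures.

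**Figure D1:**
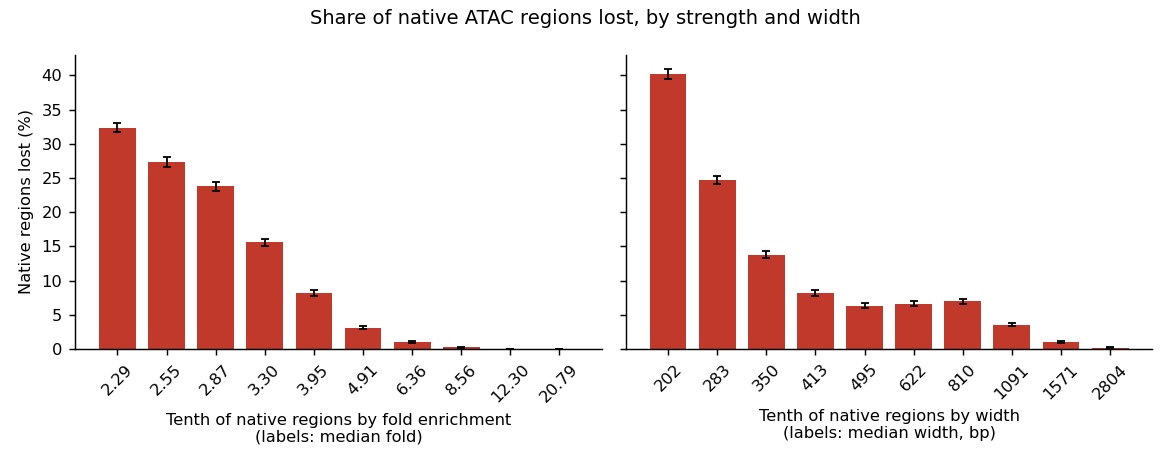
The share of native ATAC regions that were lost (y axis, %) in deciles of the native list ordered by fold enrichment (left, labelled with each decile's median fold) or by width (right, labelled with the median width in bp); bars are shares and whiskers exact 95% intervals. The share falls from 32.4% in the weakest decile to 0.0114% in the strongest, and from 40.3% to 0.210% by width.

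The edge of the rule was narrow. Among lost regions, 52 lay less than 10 bp from a region of the other list, and 49 kept regions shared less than 10 bp with it. The region at chr2:240440651-240441019, which is 118 kb from the start of HDAC4 (a histone deacetylase), was lost at a fold of 2.31 although it touched a region of the other list, as did chr5:156542049-156542248 in an intron of HAVCR2 (fold 2.34) and chr6:87184086-87184383 (fold 2.22), between genes. On the other side, chr3:138617467-138617723 near FOXL2 (fold 2.37), chr4:10133087-10133539 near WDR1 (fold 2.31) and chr6:33159505-33159706 in an intron of COL11A2 (fold 2.55) were kept with 1 shared base. Such cases were few: the median lost region lay 4290 bp from the nearest region of the other list, 11.8% lay within 1000 bp and 1.70% lay more than 100 kb away. Kept regions were mostly covered well, since 46.4% of them lay wholly inside the other list and the median region had 99.1% of its bases there.

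The 5 strongest lost regions spanned several settings. The ABCB11 region, chr2:169882313-169883013, had a fold of 16.2 and lay 7.0 kb from the nearest region of the other list. The region at chr16:32876417-32877022 had a fold of 16.1 and lay 189 kb from TP53TG3, whose family has near-identical copies on this chromosome arm, so that the placement of its reads is uncertain. The region at chr12:133484888-133485721 (fold 13.6, 42% A/T) lay in an intron of CHFR, a mitotic checkpoint ubiquitin ligase, 428 bp from its start. The region at chr1:14646986-14647471 (fold 11.3) lay deep in KAZN, which encodes a desmosome-associated protein, 278 kb from the nearest start. The region at chr13:84695571-84696050 (fold 11.3) lay 239 kb from SLITRK1, a neuronal adhesion gene. None of the 5 overlapped a Satb1 peak of any list. The widest lost region, chr13:42042149-42049472, covered 7324 bp at a fold of 3.12, 14.1 kb from RGCC. The widest others lay in introns of SYNE2, which encodes a nuclear envelope spectrin, over 5807 bp and GCLC, which encodes a glutathione synthesis subunit, over 4866 bp, in an exon of PDK4, which encodes a mitochondrial kinase, over 4652 bp (fold 5.44), and between genes on chromosome 16 over 4312 bp (fold 6.82).

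Lost regions were mostly distal. A total of 299 had their midpoint in the promoter of a protein-coding gene, taken as 1000 bp before to 100 bp after a start. That is 1.52% (1.35 to 1.70%), against 6.03% of kept and 1.76% of gained regions, and 1.55% of all bases of the same chromosomes. Between genes lay 52.7% of lost, 46.3% of kept and 47.5% of gained regions. The median distance to a protein-coding start was 45 kb for lost regions and 26.3 kb for kept ones, and 32.7% of lost regions against 21.8% of kept regions lay more than 100 kb from any start. Promoter regions are strong as a rule, and with kept regions weighted to the lost regions' width and fold the difference of −4.51 percentage points shrank to −0.589 (interval −0.804 to −0.373).

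The lost promoter regions had a median fold of 2.62, against 12 at kept promoters, and a median of 3 CpG steps in 200 bp against 12. The 10 strongest had folds from 4.63 to 8.40. The first 3 of these belonged to zinc finger genes, ZNF879 (fold 8.40, 2 bp from the start), ZNF726 (6.94) and ZNF442 (5.92), and the others to AKR7A3 (an aldo-keto reductase), GPR173 (an orphan receptor), HLA-DQB1 (an MHC class II chain at a highly polymorphic locus), HNMT (histamine methyltransferase), NRXN3 (a neurexin), ECHDC3 and the olfactory receptor gene OR2T11. Counted after these values were seen, the nearest start was that of a ZNF gene for 16 of 299 lost promoter regions (5.35%, interval 3.09 to 8.54%) and for 2.71% (2.40 to 3.06%) of 9433 kept ones. A lost region overlapped a promoter of 381 of the 15213 genes with any native region over a promoter. Of these 381, 213 still had a region of the Satb1-expressing list over some promoter, leaving 168 with none.

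Lost regions were richer in A/T than kept regions of the same strength (the plot of lost and kept regions by fold class). In 200 bp at the midpoint, A/T averaged 56.0% in lost (SD across regions 8.16, n = 19668), 51.6% in kept and 50.4% in gained regions, against 59.0% of all bases. The difference between lost and kept regions was 4.40 percentage points (interval 4.27 to 4.52), and 4.39 with kept regions weighted to the lost regions' width and fold. In regions with a native fold under 2.5 the means were 54.1% and 48.8%, and at a fold of 5 or more 57.6% and 50.9%. CpG steps, the sites of DNA methylation in mammals, averaged 1.85 per 200 bp in lost and 3.6 in kept regions, and 26.4% of lost against 17.4% of kept regions had none. The result turned on what counts as kept: with a reciprocal overlap of at least 50%, 38.1% of native regions were lost and lost regions held less A/T than kept ones, by −1.78 percentage points. Of the 47332 regions that this rule moved to the lost side, 83.2% had at least 50% of their own bases in the other list and failed because they filled less than that of a region there. Gained regions averaged less A/T than lost and kept regions without account of strength, but more than the 48.8% of kept regions with a native fold under 2.5. The A/T of the whole Satb1-expressing list was not computed. With 1 list per condition, a difference in base composition between libraries cannot be told apart from one between the cells.

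**Figure D2:**
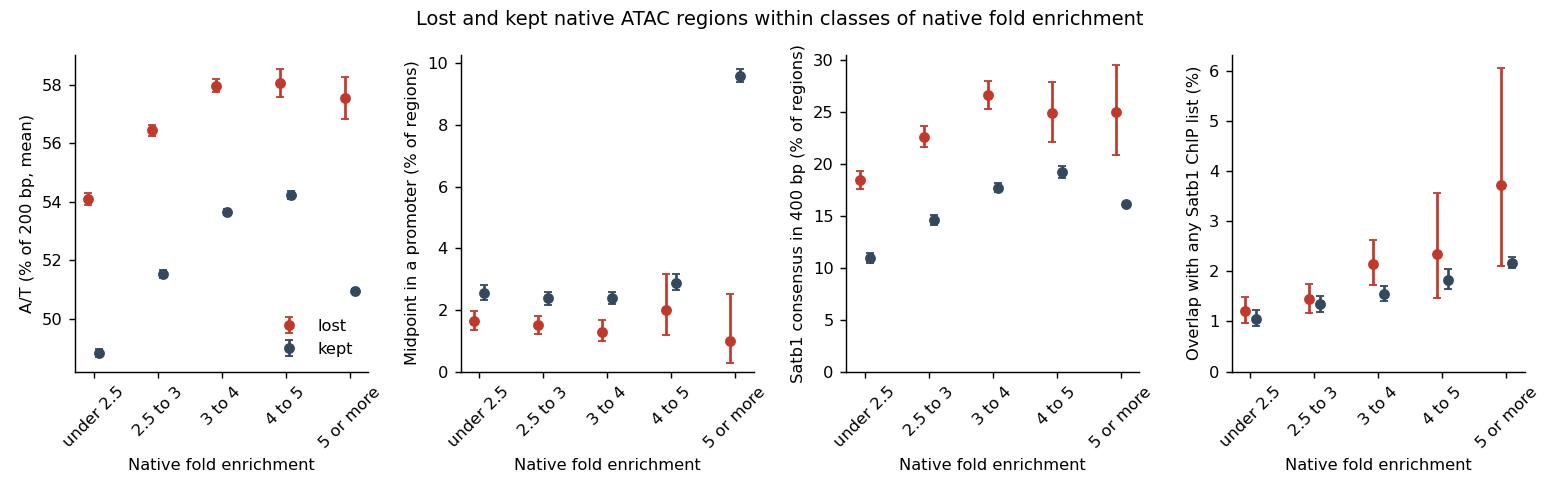
Lost (red) and kept (dark) native ATAC regions in 5 classes of native fold enrichment (x axis): mean A/T of 200 bp, share with the midpoint in a promoter, share with a Satb1 consensus match in 400 bp and share overlapping any of 5 Satb1 ChIP lists (y axes, %). Whiskers are 95% intervals; the A/T axis does not start at 0. A/T and consensus shares are higher in lost regions in all 5 classes, from 54.1% against 48.8% A/T in the weakest to 57.6% against 50.9% in the strongest.

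The Satb1 consensus, like A/T, was more frequent in lost than in kept regions around the midpoint. Whether base composition accounts for this was not tested. At least 1 match lay within 400 bp of the midpoint in 22.1% of lost regions (21.5 to 22.7%), 16% of kept and 12% of gained regions. All windows of 400 bp on the same chromosomes gave 25.7%, so lost regions held the consensus less often than unselected DNA. In each class of native fold the share was higher in lost than in kept regions, for example 18.4% and 11% at a fold under 2.5, and 25.1% (20.9 to 29.6%) and 16.1% at 5 or more. Many matches together were rare. A total of 717 lost regions (3.64%) held 2 or more, against 2.37% of kept regions, and 17 (0.0864%, 0.0503 to 0.138%) held 4 or more, against 0.0403% (0.0310 to 0.0516%). The most in a lost region was 5, and in the more numerous kept regions 11. Over whole regions the order turned, with a match in 18.6% of lost and 28.3% of kept regions, which are wider. Per kilobase, lost regions held 0.598 matches and kept regions 0.424. With the 50% reciprocal overlap the difference in 400 bp also turned, to −2.33 percentage points.

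Short motifs of other factors, searched as exact letters on both strands in 400 bp, separated lost from kept regions in both directions. Matches are descriptions of the letters and not of binding. The AP-1 motif (TGANTCA), of the FOS and JUN family that is highly active in mammary epithelial lines, lay in 23.8% of lost (23.2 to 24.4%), 31.8% of kept and 12.2% of all windows. Kept regions weighted for width and fold also gave 31.8%. At a native fold under 2.5, however, the shares were 18.5% of lost and 18.8% of kept regions, with overlapping intervals. At a fold of 3 to 4 they were 27.8% and 34.5%. The core CTCF letters AGGGGGCGC, part of the insulator factor's site, were found in 30 lost regions (0.152%, 0.103 to 0.218%) against 0.749% of kept regions, and 0.389% of kept regions weighted for width and fold. The GC-rich SP/KLF letters GGGCGG lay in 5.09% of lost and 13.4% of kept regions, and the ETS letters CCGGAAG in 1.04% and 2.52%. In kept regions weighted for width and fold these shares were 8.97% and 1.60%. All windows held the SP/KLF letters in 5.48% and the ETS letters in 0.956%, close to the lost regions. The ZEB/SNAI E-box CAGGTG, read by repressors of epithelial genes, lay in 29.3% and 33.2%, and in 36.2% of the weighted kept regions. Other motifs were more frequent in lost than in kept regions: the letters AGATAA of zinc finger factors such as GATA3 in 24.5% against 19.2%, the forkhead letters TGTTTAC in 8.62% against 6.34%, and C/EBP (TTGCNNAA) in 26.3% against 21.5%. All windows held these letters in 27.0%, 6.17% and 20.5%, in that order. TEAD (ACATTCC), read by the partners of YAP, lay in 8.77% against 7.30%, and grainyhead (AACCNGTT), of an epithelial regulator family, in 3.06% against 2.71%. For RUNX (TGTGGTT) the shares were 8.79% and 8.99%, with an interval of the difference from −0.619 to 0.222 percentage points, and for NFY (AGCCAAT) 5.19% and 4.82%.

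Few lost regions met a Satb1 peak (the plot of overlap with 5 ChIP lists). Full-length Satb1 peaks overlapped 60 lost regions (0.305%, 0.233 to 0.392%), against 0.445% of kept and 0.326% of gained regions. Intervals of the lost widths at every possible position of the same chromosomes would overlap these peaks in 0.590% of placements. The shares after camptothecin were 0.320% of lost regions (63 regions) and 0.663% of placements, and after ICRF-193 0.574% (113) and 1.02%. For ∆HD they were 1.17% (230) and 1.48%, and for N-C1 1.19% (234) and 1.64%. All 5 shares of lost regions lay under the share of placements, as did those of kept and gained regions against placements of their own widths. Lists differ in length (22877 full-length, 50537 ∆HD and 62856 N-C1 peaks), so the shares are not compared between constructs.

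**Figure D3:**
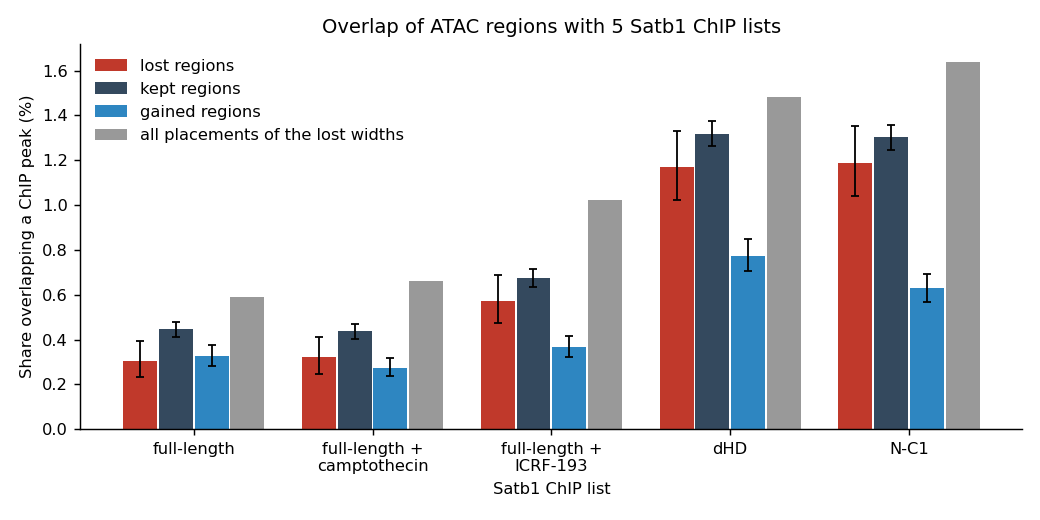
Share of lost, kept and gained ATAC regions that overlap a peak (y axis, %) of each Satb1 ChIP list (x axis), with exact 95% intervals, beside the share of all placements of the lost regions' widths on the same chromosomes (grey, no error). Lost regions lie between 0.305% and 1.19% and below the grey bar in each list.

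Unadjusted for strength, lost regions met any of the 5 lists in 1.60% of cases (314 regions, 1.43 to 1.78%) and kept regions in 1.81%. Within classes of native fold the order was the other way: 1.21% and 1.06% at a fold under 2.5, 2.15% (1.73 to 2.63%) and 1.54% (1.40 to 1.70%) at 3 to 4, and 3.72% (15 of 403, 2.10 to 6.06%) and 2.17% at 5 or more. With kept regions weighted to the lost regions' width and fold, the share of lost regions was higher by 0.460 percentage points (interval 0.262 to 0.659). The weighted difference was 0.449 (0.280 to 0.618) for N-C1, 0.299 (0.127 to 0.471) for ∆HD and 0.168 (0.0497 to 0.287) for ICRF-193. It was 0.00845 (−0.0826 to 0.0995) for full-length Satb1 and 0.0286 (−0.0635 to 0.121) for camptothecin, and both of these intervals include 0. The direction for any list therefore depended on the account taken of strength and width. For full-length Satb1 alone the share was lower in lost than in kept regions in all 5 fold classes, but the intervals overlapped in each. The shares were 0.316% (23 regions, 0.201 to 0.474%) and 0.363% at a fold under 2.5, and 0.496% (2 regions, 0.0602 to 1.78%) and 0.504% at 5 or more. Seen from the peaks, native regions that met an N-C1, ∆HD or ICRF-193 peak were lost more often than those on no Satb1 peak in all 5 fold classes. For camptothecin peaks the share was smaller at a fold under 2.5 (26.3% against 31.6%). In the class of 3 to 4, 14.0% (13.6 to 14.4%) of regions on no peak were lost. The share there was 21.3% for N-C1 (75 of 352, 17.1 to 26%), and this interval did not overlap that of no peak. It was 17.7% (13.9 to 22.1%) for ∆HD and 17.5% (12.3 to 23.8%) for ICRF-193, with intervals that overlapped it. In the same class 11.9% of regions on full-length peaks were lost (14 of 118, 6.64 to 19.1%).

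Among the 314 lost regions on any list, 191 (60.8%, 55.2 to 66.3%) lay on ∆HD or N-C1 peaks and on none of the 3 full-length lists, close to the 58.9% of 2832 kept regions on any list. On all 5 lists lay 41 (13.1%, 9.54 to 17.3%), against 16.9% of those kept regions. Of the 60 on full-length peaks, 56 lay also on ∆HD, 56 on N-C1, 45 on camptothecin and 52 on ICRF-193 peaks. All 5 lists covered 41 of these 60, and 480 of the 696 kept regions on full-length peaks. Such sharing was therefore not particular to lost regions. A consensus match lay in 400 bp of 39 of the 60 lost regions, and 2 lay at promoters. These last counts were not made for kept regions. The full-length peaks on lost regions had a median fold of 7.39 over input, those on kept regions 7.49 and those on no native region 7.29, the last making up 96.6% of the list.

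The lost region under the strongest full-length peak was chr9:86066412-86066697 in an intron of FRMD3, with a native ATAC fold of 2.35 and ChIP folds of 28.4 for full-length Satb1, 7.83 for ∆HD, 42.1 for N-C1, 18.9 after camptothecin and 31.1 after ICRF-193. The others among the 8 strongest had full-length ChIP folds from 16 to 26.4 and native ATAC folds from 2.29 to 3.21. They lay in introns of SLC9A4 (a sodium-proton exchanger), DOCK2 (a Rac activator of blood cells) and WWC2 (a Hippo pathway protein), between genes near PAWR, SULT1C4 and AADAT, and in the promoter of SPANXN3 on the X chromosome, 343 bp from its start. Of the 8, 7 lay on all 5 lists, and the PAWR region was not on the camptothecin list. The region near GSDME printed above, chr7:24807535-24807736, had the most consensus matches in 400 bp (5) together with chr18:41000987-41001186 near SYT4. The GSDME region lay on all 5 lists, with ChIP folds from 12.2 to 21.2, whereas the SYT4 region lay on none, as did an intronic region of MYO1D with 4 matches. The strongest lost region on all 5 lists was chr16:15536013-15536548 in an intron of BMERB1, with an ATAC fold of 6.03 and ChIP folds from 7.69 to 20.8. It was followed by regions near IRX5 (ATAC fold 5.18), PYDC2 (4.61) and PSAT1 (4.21) and in an intron of ADK (4.15).

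Lost regions were not spread evenly along the genome. With Y left out, the share of native regions lost by chromosome ran from 7.84% on chromosome 19 (7.11 to 8.62%) to 14.6% on chromosomes 18 (13.5 to 15.8%) and X (13.6 to 15.6%). It was 13.9% on 4 and 13.8% on 13. Chromosomes 22 and 15 followed 19 at the low end, with 8.32% and 9.02%. Among native regions with a fold under 4 alone, chromosome 19 was still lowest, at 16%, and 18 highest, at 30.7%. The order was not the same throughout, since chromosome 15 stood at 20.1%, above chromosome 1 at 17.1%. Over 591 windows of 5 Mb with at least 50 native regions the median was 11.9%, with 90% of windows between 6.01% and 20.5%. In the quartile of windows with the fewest protein-coding starts 15.2% of native regions were lost, and then 13.1%, 11.4% and 8.37% with rising gene number. Across these windows the rank correlation of the share with gene number was −0.57, with the number of native regions −0.55, with mean A/T of the native regions 0.60 and with their median fold −0.07. Neighbouring windows share large domains, so these values are descriptions.

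The window with the largest share was chromosome 16, 60000001 to 65000000, where 33 of 92 native regions were lost (35.9%, 26.1 to 46.5%) around its only protein-coding start, that of CDH8, a neuronal cadherin. Others among the largest were windows on X with DACH2 and KLHL4 (17 of 56), on 13 with PCDH17 (14 of 54) and on 14 with MDGA2 (26 of 103). Windows on chromosomes 8 and Y are not named, and the lowest share over all windows was 0. Among the smallest of the others were the end of chromosome 17 past 80000001, which holds FASN and CSNK1D (3 of 165, 1.82%), a part of chromosome 1 with 940 native regions (29 lost, 3.09%) that holds KIF14 and PKP1, another part of it with PDE4DIP (10 of 263), and the globin end of chromosome 16 (26 of 672, 3.87%).

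**Figure D4:**
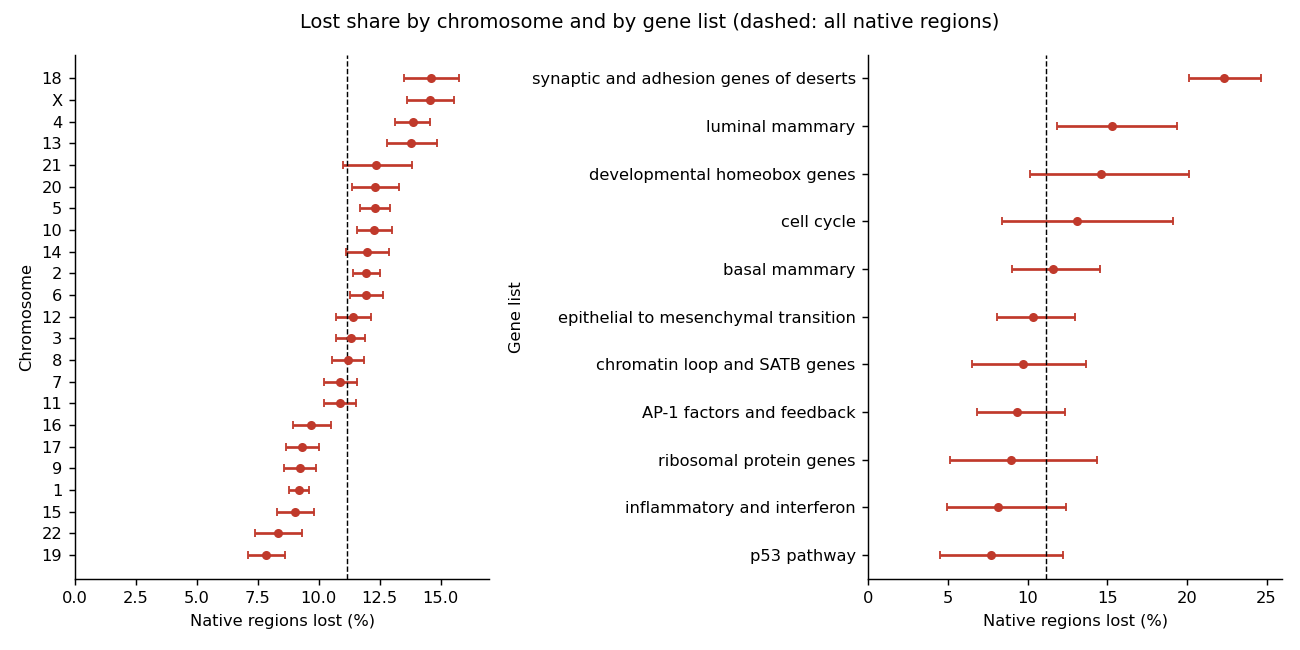
Share of native ATAC regions lost (x axes, %) on each chromosome except Y (left) and among regions nearest to the genes of 11 lists (right), with exact 95% intervals. The dashed line is the share of all native regions. Chromosomes 18 and X lie highest at 14.6% and 19 lowest at 7.84%, and the list of synaptic and adhesion genes stands at 22.3%.

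Lost regions also came in unbroken runs along the chromosome (the plot of the longest runs). Most, 13960, stood alone among kept neighbours, but 68 runs held 5 or more lost regions in a row, 482 in all or 2.45% of lost regions. The 11 runs of 10 or more held 150 regions over 7.28 Mb in sum, where the list from Satb1-expressing cells had 2 regions, a scarcity that the choice of runs fixes. These runs held stronger regions than the rest: 30 of the 150 had a fold of 5 or more, against 1.59% of the lost regions that stood alone. They were far from genes, with a median of 354 kb to a protein-coding start against 38.8 kb. An AP-1 match lay in 50.7% of them against 22.9% of those standing alone. A Satb1 peak of any list met 0 of the 150 and 1.49% of those standing alone. As 3 regions would be 2% of the 150, a share of this size could be missed. The 11 stretches held 55 full-length, 121 ∆HD, 163 N-C1, 50 camptothecin and 68 ICRF-193 peaks, where an even spread over the assembly would give 53.7, 119, 147, 57.4 and 87.6. Whether these stretches are present in the same number of copies in the ATAC-seq line was not tested. Gained regions also formed runs, 74 of 10 or more.

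The longest run held 24 lost regions in 1027 kb, chr13:22375258-23402614, with FGF9, which encodes a secreted fibroblast growth factor, among the nearest genes. Their folds ran from 2.28 to 11.1 with a median of 4.64, and 8 were at 5 or more. No region of the Satb1-expressing list lay inside. The second, chr5:3845331-4571801, held 19 lost regions with folds from 2.14 to 9.68 between IRX1, a homeobox gene, and ADAMTS16, a secreted protease gene, also with no region of the other list. Both next runs lay on chromosome 18. The one at chr18:5518947-6522233 held 17 lost regions (folds 2.33 to 6.96) around EPB41L3 and L3MBTL4, and the one at chr18:4074722-5073836 held 14 (folds 2.30 to 9.49) near DLGAP1, which encodes a postsynaptic scaffold. Each of these held 1 region of the other list. The fifth, chr10:110823475-111207791 near XPNPEP1, an aminopeptidase gene, held 12 lost regions with folds from 2.40 to 9.37 and none of the other list. Such runs are made by the rule from neighbours that lack an overlap, and they are given as a description.

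**Figure D5:**
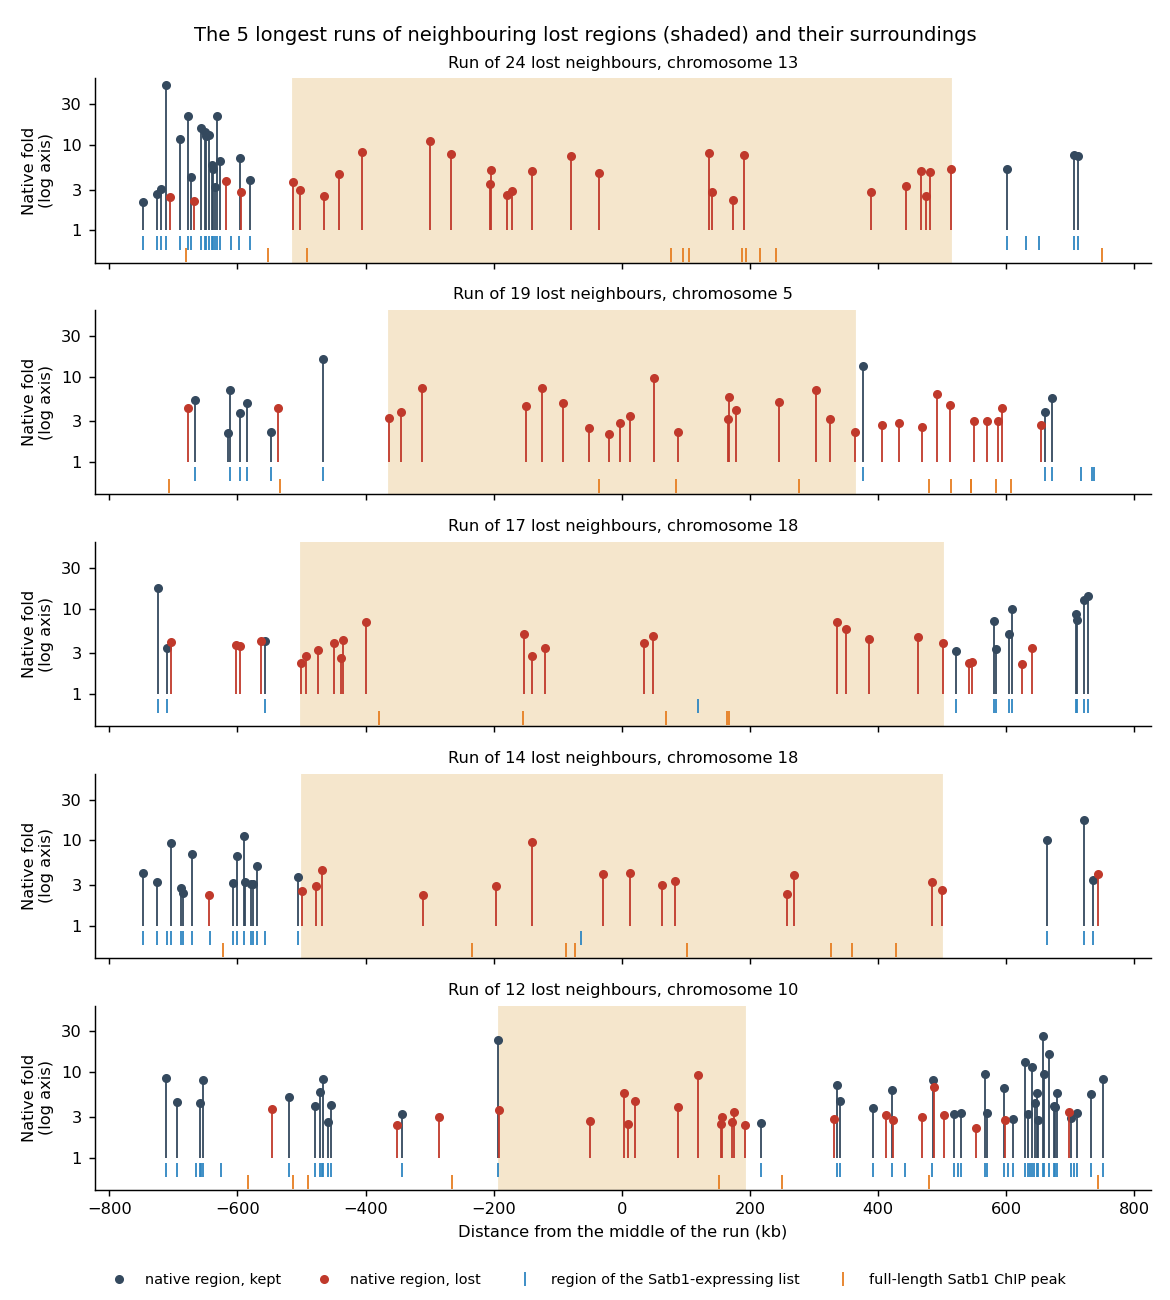
Native ATAC regions around the 5 longest runs of lost neighbours (shaded): each stem is a region at its distance from the middle of the run (x axis, kb) and its native fold enrichment (y axis, log), red if lost and dark if kept; ticks below mark regions of the Satb1-expressing list (blue) and full-length Satb1 ChIP peaks (orange). Inside the runs the blue ticks number 0, 0, 1, 1 and 0 while 8, 3, 5, 7 and 1 orange ticks are present.

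The nearest protein-coding start was used to tie lost regions to genes, which does not say which gene a region acts on. Lost regions were nearest to 8143 of the 18218 genes with any native region, and 1006 genes had 5 or more. KAZN had the most, 36 of its 85 native regions (42.4%, 31.7 to 53.6%), at folds up to 11.3. It was followed by a gene named only by its Ensembl identifier, ENSG00000284209 (27 of 50), in the pericentromeric part of chromosome 16. A count of lost regions favours genes with many native regions. The others were the teneurins TENM2 (25 of 149, 16.8%) and TENM4 (22 of 124, 17.7%), the latrophilin ADGRL2 (24 of 77), LRRC4C (24 of 102), the Slit receptor ROBO1 (22 of 67), CNTNAP5 (22 of 94), the ERBB4 ligand NRG3 (22 of 70) and the glutamate receptor GRM7 (21 of 71), together with XPNPEP1 (24 of 61), the RNA-binding protein gene CELF4 (22 of 95), ZNF608 (21 of 89), the kinesin KIF2B (20 of 49) and MACROD2 (20 of 48). Among the 2326 genes with at least 20 native regions the median share was 11.1%. FBXL7, an F-box protein gene, and TDRD15 had the largest, 13 of 21 each, and others among the 10 largest were IRX1 (18 of 30), FGF9 (17 of 30), ADAMTS16 (19 of 34), DPP6 (12 of 23), which encodes a potassium channel subunit, and the neuronal splicing factor gene NOVA1 (13 of 25). By length of the nearest gene, 9.40% of native regions were lost for genes of 10 to 50 kb and 16.7% (16 to 17.4%) for the 306 genes of the longest of 5 length classes.

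Of 11 gene lists, the one of synaptic and adhesion genes of gene-poor regions had the largest share, 297 of 1330 native regions (22.3%, 20.1 to 24.7%), over 28 of its 29 genes, among them CNTNAP5, MACROD2 and DPP10 (18 of 38). Among its regions with a fold under 4 the share was 39.1%, against 22.9% of all such native regions, 34.1% for luminal genes and 33.3% each for homeobox and cell cycle genes. Luminal mammary genes lost 57 of 372 (15.3%, 11.8 to 19.4%), with 17 of 75 near GATA3, the luminal master regulator, and 6 of 25 each near KIT and ERBB4. The intervals of all other lists included the 11.2% of the whole list. Basal mammary genes lost 64 of 552 (11.6%), among them 11 of 42 near DSC3 (a desmosomal cadherin) and 11 of 64 near DST (a hemidesmosome linker). Genes of epithelial to mesenchymal transition lost 66 of 638 (10.3%), with 11 of 69 near ZEB2 and 10 of 62 near CDH2, and AP-1 factors and their feedback genes lost 42 of 451 (9.31%), with 14 of 72 near SPRY2. Developmental homeobox genes lost 31 of 212 (14.6%), cell cycle genes 22 of 168 (13.1%), chromatin loop and SATB genes 28 of 289 (9.69%), ribosomal protein genes 15 of 167 (8.98%), inflammatory and interferon genes 19 of 234 (8.12%) and p53 pathway genes 16 of 207 (7.73%). Near SATB1 itself 4 of 25 native regions were lost, at folds from 2.39 to 4.15. Lost regions with a midpoint in a promoter numbered 5 over all 11 lists. They were 3 of 22 native promoter regions for synaptic and adhesion genes, 1 of 13 for luminal and 1 of 17 for inflammatory and interferon genes, with none in the other lists. For all protein-coding genes the count was 299 of 9732, and no more is read from numbers this small.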

How the data were processed

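The 7 MCF10A peak lists, 2 of ATAC-seq and 5 of Satb1 ChIP-seq, were analysed. The members and gene lists were chosen with earlier results of these data known. The authors trimmed reads with cutadapt, aligned them to hg19 and called peaks with MACS2, as broad peaks for ATAC-seq; the pooling of duplicates is not given in the sources used here. The fold enrichment deposited for a region is the authors' ratio of its pileup to the local background. Its deposited score, −log10 p-value and −log10 q-value also come from MACS2. The depth of the ATAC-seq lists is unknown, and a region absent from a list may lie below its threshold. The smallest fold was 2.14 in the native list and 1.77 in the other.

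Overlap meant at least 1 bp. A/T was counted in 200 bp and motifs in 400 bp at the midpoint, from hg19. Genes were GENCODE protein-coding transcripts lifted to GRCh37. Placements were enumerated at every position of the same chromosome outside assembly gaps, for each lost width, and were not drawn. Intervals at 95% are exact Clopper-Pearson for shares and across regions for means. Regions were named by rank of fold, width, ChIP fold or motif number on chromosomes other than 8 and Y, genes by number or share of lost regions, and windows and runs by share and length. No test between conditions was run. Functions were tested on simulated data. bedtools 2.31.1, samtools 1.23.1 and pysam 0.24.0 read the regions and genome, matplotlib 3.10.9 drew the plots, and Python 3.11.15 with pandas 2.3.3, scipy 1.17.1 and numpy 2.4.6 did the rest.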

Additional observations from a re-analysis of the deposited data

How the results depend on the processing

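No paired analysis was possible because each condition had 1 list and no replicate numbers. Of 53 alternative values, 15 stayed within the 95% interval of the reported value, 27 left it without changing sign and 11 changed sign. Some of those that changed sign have intervals that include 0. Differences below are lost minus kept in percentage points. The lost share of 11.2% became 38.1% with a 50% reciprocal overlap, 9.86% with no region allowed within 1000 bp, 2.98% with native −log10 q of at least 5 and 29.5% with that threshold on the Satb1-expressing list. Under those 4 settings in turn, the A/T difference was −1.78, 4.92, 6.27 and 1.83, and the consensus difference −2.33, 6.80, 9.45 and 2.12. The promoter difference was −2.29 with the reciprocal overlap, −6.25 with native q and −4.97 with the other list's q. For any ChIP list it was −0.696, 0.291 (interval −0.222 to 0.805) and −0.533 under the same settings. With kept regions weighted by width and fold the promoter difference was −0.589, consensus 7.34, full-length overlap 0.00845 (interval −0.0826 to 0.0995) and any list 0.460. Over the whole region A/T differed by 3.47 and the consensus by −9.68. The consensus differed by 3.26 in 200 bp and by 2.67 in its narrower form (CTAATAA or CTAATAG). The promoter difference was −8.70 for any overlap, −8.38 within 2000 bp of a start and −7.06 with every transcript type. With the ATAC midpoint inside the ChIP peak the full-length difference was 0.0204 (interval −0.0275 to 0.0683) and that of any list 0.190. With a peak within 1000 bp they were 0.220 and 0.728. Chosen after seeing the data, native folds of 5 or more gave 6.62 for A/T, −8.61 for promoters and 8.96 for consensus. They gave −0.00791 (interval −0.697 to 0.681) for full-length and 1.55 (−0.304 to 3.40) for any list. Leaving out runs of 5 or more lost neighbours, also chosen after seeing the data, moved none of the 5 differences beyond its interval. The cause of these changes was not tested. What the unknown depth limits could not be measured: 17.4% of lost regions had a −log10 q of 5 or more, against 71.1% of kept regions, and whether the others lie just under the other list's threshold was not tested.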
